A study of Mus musculus with 12 samples.

Results

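Nuclear receptors are transcription factors, many of which are switched by small fat-soluble ligands such as fatty acids, bile acids, sterols, retinoids and hormones. The list examined here holds 41 mouse genes of this superfamily, and 40 of them were measured in liver at postnatal day 2 (P2), out of 19938 genes read in the same way. The rule that selects the members uses family membership and no measured value, although the family was picked with earlier results of these data known. Each was read from a probe set (a group of array probes summarised to 1 value) that names that gene and no other; *Nr1h2*, which encodes liver X receptor β, has no such probe set and is not reported. Every measured member had 1 such probe set.

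The livers came from 12 suckling pups, 6 *Ppara*+/+ and 6 *Ppara*-/-, with 3 males and 3 females in each genotype and 1 Affymetrix mouse gene array per pup. Both genotypes were bred from *Ppara*+/- parents and could share a litter and a dam, and no treatment is named for either. The null allele is carried in the whole animal, so the liver cells of *Ppara*-/- pups and every other tissue lacked the receptor from conception. The labels name the strain SV129, whereas the methods of the study name a C57BL/6 background. The methods of the study describe RNA taken from 3 litters for each genotype, so some of the 6 pups of a genotype shared a litter. Which litter a pup came from is not in the labels, so litter could not enter any test, and all p-values, the permutation tests included, count littermates as independent and may be too small.

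PPARα, the product of *Ppara*, is activated by fatty acids and switches on their breakdown in liver. It binds DNA together with a retinoid X receptor (RXR), and so do the thyroid hormone, retinoic acid, liver X, bile acid and xenobiotic receptors. Other members act alone or as pairs of the same protein, and a few, such as the small heterodimer partner encoded by *Nr0b2*, bind other receptors in place of DNA. In liver the family is known for its control of fat, bile acid, glucose and drug metabolism. The comparison asked which of the other receptors changed at the level of RNA in suckling pups that lack one of them.

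Signals are given on the log2 scale of RMA (robust multi-array average), in which 1 unit is a 2-fold difference, and differences are *Ppara*-/- minus *Ppara*+/+. They were tested with limma, with sex as a term, adjusted by Benjamini-Hochberg across the 35556 probe sets of the array, and called at an adjusted p under 0.05. The arrays were alike, with medians of 7.16 to 7.20 and pairwise correlations of 0.989 to 0.996, and precision is limited by how many pups there were. No marker of any of 8 cell types passed the test. All 7 hepatocyte markers lay above the array medians, with array means of 13.67 to 13.76 in *Ppara*+/+ and 13.70 to 13.73 in *Ppara*-/- livers. All 11 Kupffer cell and macrophage markers had higher means in *Ppara*-/- livers (median log2 difference 0.21; array means 9.72 to 10.10 against 9.98 to 10.12), as had all 10 endothelial markers (0.13; 10.14 to 10.33 against 10.30 to 10.41). All 9 erythroid markers had lower means there (-0.18; 11.47 to 11.85 against 11.39 to 11.75). The median differences of stellate cell, cholangiocyte and granulocyte markers were 0.10, 0.07 and 0.07. *Ppara*+/+ replicate 7 stood apart from its group, with the highest Kupffer cell value (10.10) and the lowest erythroid value (11.47) of the 6 arrays. It also had the highest value of its group for 16 of the 40 receptors and for 26.0% of all genes. *Ppara*-/- replicates 6 and 10 had the highest means of 4 pancreatic markers, 9.11 and 8.73, where *Ppara*+/+ arrays ran from 6.78 to 8.17.

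Most of the receptors gave a clear signal in the P2 liver. Of the 40, 28 lay above the 50th percentile of all genes by mean signal in *Ppara*+/+ livers, 4 of them above the 90th, and 6 lay below the 25th. The median receptor stood at the 68.7th percentile, that is, above 68.7% of genes. Probe sets differ in brightness per transcript, so these are ranks of signal and not of transcript number.

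**Figure D1:**
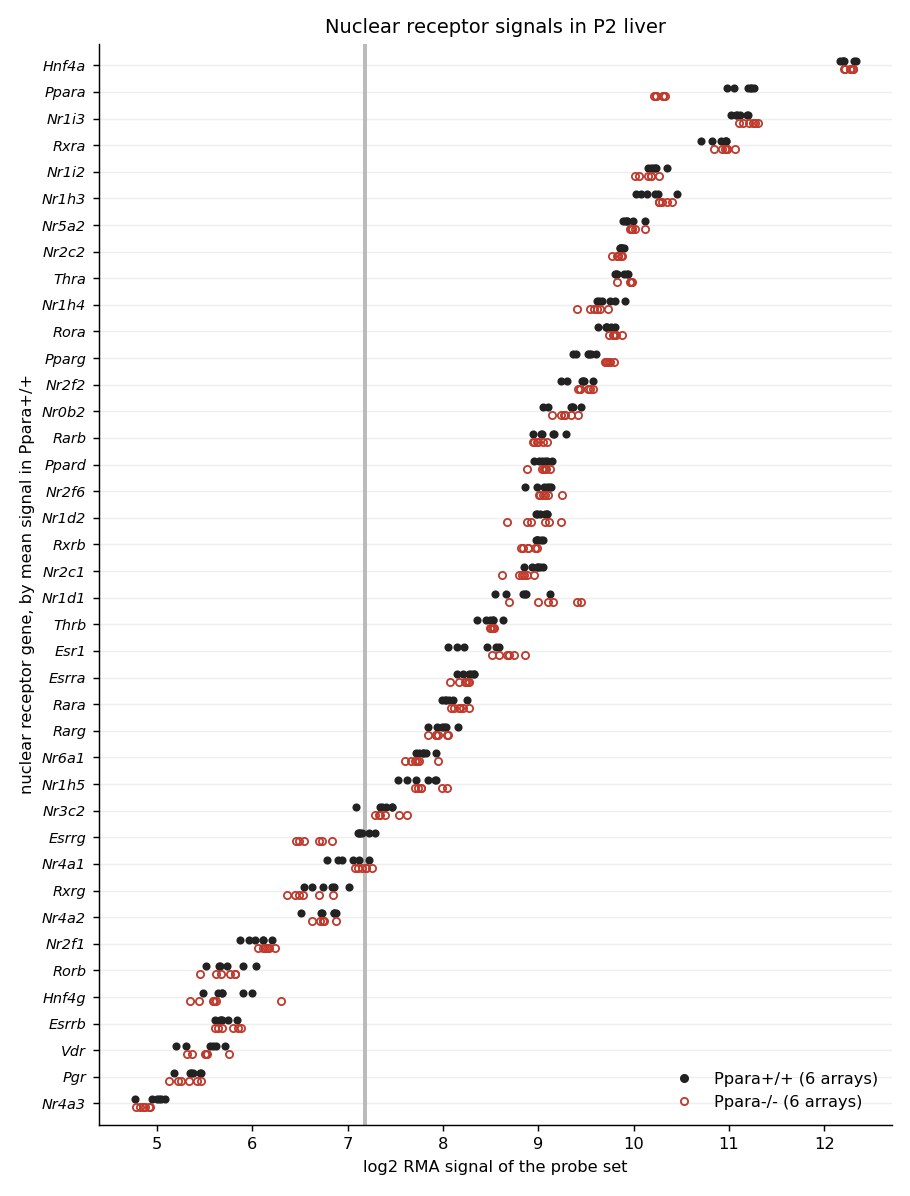
Log2 signal of each nuclear receptor (horizontal axis) in every P2 liver, with receptors ordered from top to bottom by mean signal in *Ppara*+/+ livers. Filled black points are the 6 *Ppara*+/+ arrays, open red points the 6 *Ppara*-/- arrays, and the grey band marks the array medians of 7.16 to 7.20; the genotypes separate for *Ppara*, *Esrrg* and *Pparg*.

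*Hnf4a*, which encodes a master regulator of hepatocyte genes, gave the strongest signal of the family, 12.24 ± 0.07 (SD, n = 6) in *Ppara*+/+ livers, at the 98.5th percentile. *Ppara* followed at 11.16 ± 0.12, next to *Nr1i3*, which encodes the xenobiotic receptor CAR, at 11.11 ± 0.07. These 2 means differed by less than either SD, so their order is not resolved. *Rxra*, the partner receptor of PPARα, gave 10.89 ± 0.11.

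Below them came *Nr1i2*, encoding the xenobiotic receptor PXR, with 10.22 ± 0.07, and *Nr1h3*, encoding the oxysterol receptor LXRα, with 10.20 ± 0.16, again closer to each other than their spread. *Nr5a2*, an activator of bile acid synthesis genes, gave 9.96 ± 0.08. The orphan receptor gene *Nr2c2* (9.87 ± 0.02) and the thyroid hormone receptor gene *Thra* (9.87 ± 0.06) were level. *Nr1h4*, encoding the bile acid receptor FXR, gave 9.73 ± 0.11.

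At the other end stood the 6 receptors below the 25th percentile: *Rorb*, *Hnf4g*, *Esrrb*, *Vdr*, *Pgr* and *Nr4a3*. Their *Ppara*+/+ means ran from 4.98 for *Nr4a3* to 5.75 for *Rorb*. *Vdr*, the vitamin D receptor gene, gave 5.50 ± 0.20, and *Pgr*, the progesterone receptor gene, gave 5.36 ± 0.10. In all, 10 receptors had *Ppara*+/+ means below the array medians.

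Only 3 of the 40 receptors passed the test between genotypes. *Ppara* and *Esrrg* were lower in *Ppara*-/- livers and *Pparg* was higher. The share of all genes called lower was 1.12% and called higher 1.99%. Without *Ppara*, the gene disrupted by design, 1 of 39 receptors was called lower (2.56%) and 1 higher (2.56%). The 2 receptors called lower were also those whose 6 *Ppara*-/- values all lay below the 6 *Ppara*+/+ values, which held for 1.43% of all genes. *Pparg* was the 1 receptor with the opposite separation, which held for 2.88% of genes.

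**Figure D2:**
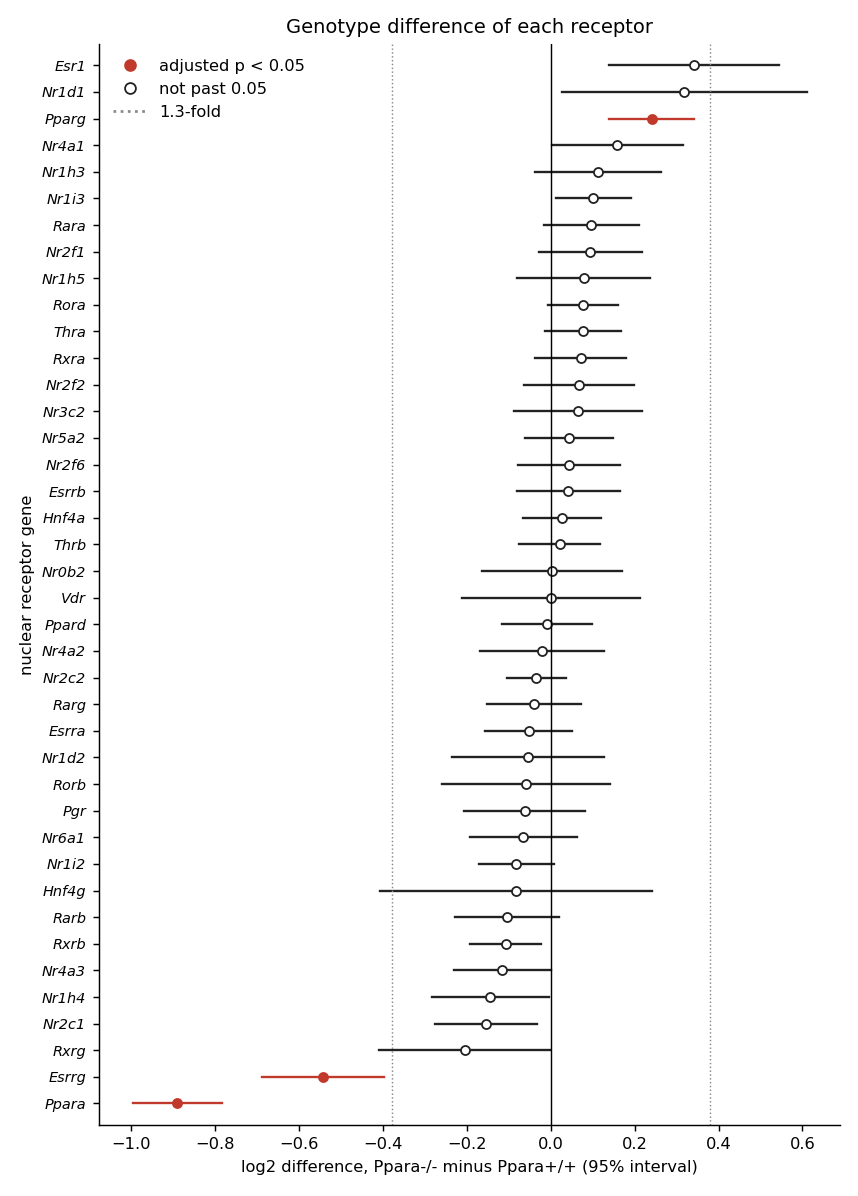
Log2 difference of each receptor, *Ppara*-/- minus *Ppara*+/+ (horizontal axis), with its 95% interval from the limma fit as a bar. Filled red points passed an adjusted p of 0.05, open points did not, and dotted lines mark a 1.3-fold difference; *Esrrg* and *Ppara* lie beyond that line on the left, and *Pparg* lies inside it on the right.

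*Ppara* itself checks the labels. The 3 *Ppara*+/+ males gave 11.27, 11.23 and 11.20 and the 3 females 11.23, 11.06 and 10.98. The *Ppara*-/- males gave 10.31, 10.33 and 10.23 and the females 10.21, 10.31 and 10.23. Every *Ppara*-/- liver lay below every *Ppara*+/+ liver, and the *Ppara*-/- values spread less.

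The means were 11.16 ± 0.12 and 10.27 ± 0.05 (SD, n = 6 each), a log2 difference of -0.89 (SE 0.0488, 95% interval -0.997 to -0.783, adjusted p = 1.2e-06 from limma). The signal in *Ppara*-/- livers still stood at the 87.8th percentile, against the 94.7th in *Ppara*+/+. The sources used here do not say whether the probes of this set lie in the disrupted region, so the signal that remained cannot be read as functional transcript. The difference was -0.84 in females and -0.94 in males, and their own difference did not pass the test (unadjusted p = 0.28 for the interaction in limma).

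*Esrrg* encodes estrogen-related receptor γ, an orphan receptor known for its part in mitochondrial energy metabolism and in the response of the liver to fasting. The *Ppara*+/+ males gave 7.13, 7.12 and 7.15 and the females 7.22, 7.29 and 7.11. The *Ppara*-/- males gave 6.54, 6.73 and 6.49 and the females 6.84, 6.70 and 6.46. The lowest *Ppara*+/+ liver was above the highest *Ppara*-/- liver, and the spread was larger in the latter group.

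The *Esrrg* means were 7.17 ± 0.07 and 6.63 ± 0.15, a log2 difference of -0.54 (SE 0.0663, 95% interval -0.69 to -0.40, adjusted p = 9.8e-04 from limma). It fell in both sexes taken alone, by 0.54 on the log2 scale in females (adjusted p = 0.044) and by 0.54 in males (adjusted p = 0.039). Its signal went from the 43.1st to the 35.4th percentile, and the *Ppara*-/- mean lay below the array medians. Without *Ppara*+/+ replicate 7 the difference was again -0.54 (adjusted p = 0.0029), and without *Ppara*-/- replicates 6 and 10 it was -0.56 (adjusted p = 0.0035). Fewer cells that express a gene and less RNA per cell cannot be told apart in bulk liver; the erythroid markers also had lower means in *Ppara*-/- livers, as given above, and their part in this result was not tested.

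*Pparg* encodes PPARγ, the PPAR best known for fat storage in adipose tissue. The *Ppara*+/+ males gave 9.52, 9.56 and 9.40 and the females 9.60, 9.53 and 9.37. The *Ppara*-/- males gave 9.74, 9.75 and 9.80 and the females 9.70, 9.71 and 9.72. The genotypes did not overlap, and the *Ppara*-/- livers kept to a narrow range of 9.70 to 9.80.

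The *Pparg* means were 9.50 ± 0.09 and 9.74 ± 0.03, a log2 difference of 0.24 (SE 0.0465, 95% interval 0.14 to 0.34, adjusted p = 0.019 from limma), or 1.18-fold. It was 0.21 in females and 0.27 in males, and neither sex passed alone. The call was held by a small margin: without *Ppara*-/- replicates 6 and 10 the difference was 0.23 with an adjusted p of 0.0899, whereas without *Ppara*+/+ replicate 7 it was 0.27 with an adjusted p of 0.0085. The Kupffer cell and endothelial markers also had higher means in *Ppara*-/- livers, and their part in the rise of *Pparg* was not tested.

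**Figure D3:**
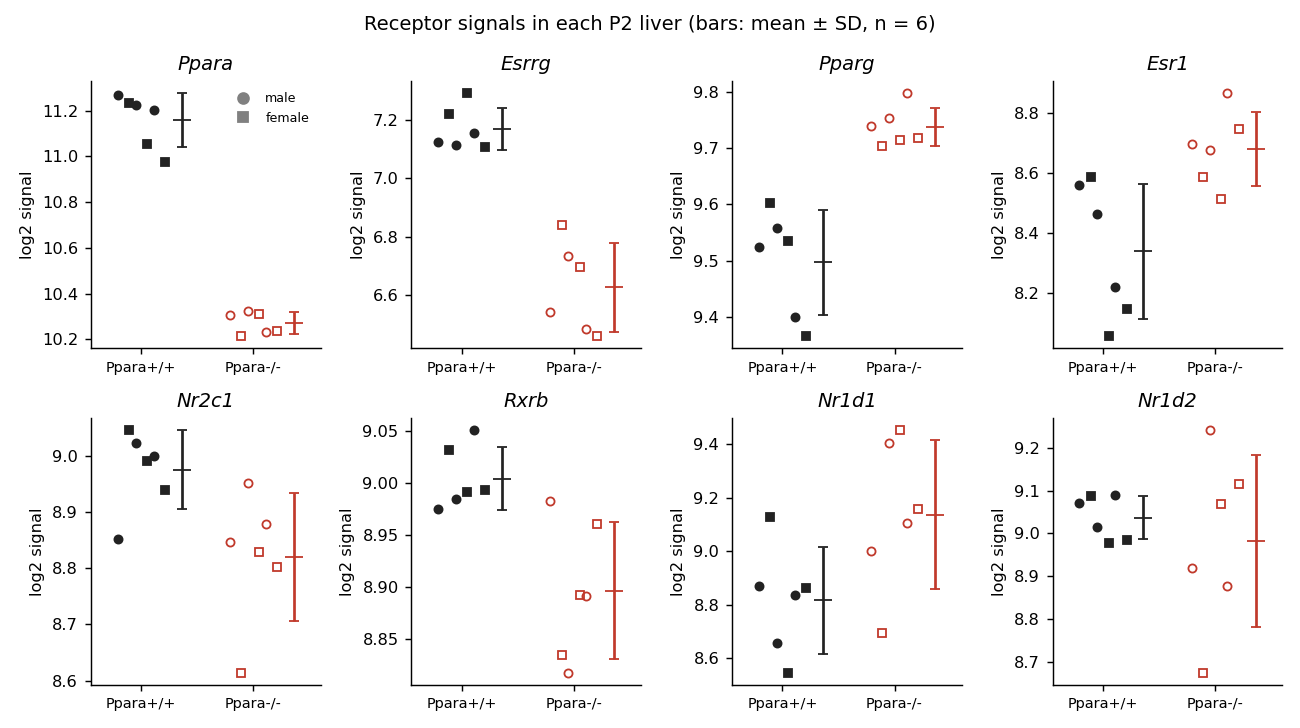
Log2 signal of 8 receptors in each of the 12 livers, 1 panel per gene with its own vertical scale that does not start at 0. Filled black symbols are *Ppara*+/+ and open red symbols *Ppara*-/- pups, circles are males and squares females, and bars give mean ± SD (n = 6); the genotypes do not overlap for *Ppara*, *Esrrg* and *Pparg* and overlap for *Esr1*, *Nr2c1*, *Rxrb*, *Nr1d1* and *Nr1d2*.

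The starts of these 3 genes are shown because they were the receptors that passed the test. Each window comes from RefSeq (build GRCm38.p6) and runs 250 bases before to 50 bases after an annotated start of transcription, on the + strand. Many nuclear receptors bind the core motif AGGTCA, singly or repeated, and a match on the printed strand is in capitals; both strands were searched.
*Ppara*, window 1 at chr15:85735526-85735825: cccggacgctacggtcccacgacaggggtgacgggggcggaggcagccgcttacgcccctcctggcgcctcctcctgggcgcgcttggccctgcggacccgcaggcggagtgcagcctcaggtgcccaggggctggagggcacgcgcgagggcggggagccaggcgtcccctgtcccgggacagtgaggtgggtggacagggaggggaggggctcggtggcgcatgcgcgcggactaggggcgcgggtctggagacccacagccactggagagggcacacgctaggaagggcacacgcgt
*Pparg*, window 1 at chr6:115360894-115361193: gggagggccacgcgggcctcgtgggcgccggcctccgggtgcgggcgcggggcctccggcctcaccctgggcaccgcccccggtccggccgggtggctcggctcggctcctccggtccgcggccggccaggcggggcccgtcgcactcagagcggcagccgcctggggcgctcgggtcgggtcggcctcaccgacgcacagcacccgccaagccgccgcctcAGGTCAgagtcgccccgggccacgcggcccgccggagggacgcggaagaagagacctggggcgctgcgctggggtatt
*Pparg*, window 2 at chr6:115362099-115362398: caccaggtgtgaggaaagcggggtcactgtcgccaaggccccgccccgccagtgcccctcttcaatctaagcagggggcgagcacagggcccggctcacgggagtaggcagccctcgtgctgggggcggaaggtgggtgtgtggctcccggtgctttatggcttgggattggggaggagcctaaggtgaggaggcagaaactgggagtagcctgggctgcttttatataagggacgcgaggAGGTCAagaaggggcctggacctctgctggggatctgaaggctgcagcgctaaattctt
*Esrrg*, window 1 at chr1:187608756-187609055: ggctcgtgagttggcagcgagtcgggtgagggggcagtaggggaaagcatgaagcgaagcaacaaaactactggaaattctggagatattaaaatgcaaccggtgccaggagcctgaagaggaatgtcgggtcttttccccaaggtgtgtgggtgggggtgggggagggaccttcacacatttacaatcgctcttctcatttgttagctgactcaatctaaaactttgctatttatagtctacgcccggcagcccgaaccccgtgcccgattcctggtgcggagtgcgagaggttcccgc

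*Ppara* has 1 annotated window, with no core motif in these letters on either strand. *Pparg* has 3 windows, and the 2 printed hold 1 core motif each, starting 28 and 9 bases before the start of transcription. Window 3 of *Pparg*, at chr6:115421816-115422115 and not printed, holds no core motif. *Esrrg* has 4 windows, none with the core motif, and the first is printed. Of 39 receptors found in the RefSeq table, 10 (25.6%) had the core motif in any window, against 18.1% of all 27025 genes; by window the shares were 18.3% of 60 and 16.3% of 32851. The longer motif TNAAGGTCA, read by estrogen-related receptors, was in no window of a receptor and in 1.28% of all windows. These are matches of letters and not measurements of binding.

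The 3 PPARs behaved differently in the same livers. *Ppard*, encoding the widely expressed PPARδ, had means of 9.05 ± 0.07 and 9.04 ± 0.09 and a difference of -0.01 (95% interval -0.12 to 0.10), an interval that leaves out a change of the size seen in either relative. The *Pparg* signal exceeded that of *Ppard* by 0.45 ± 0.08 in *Ppara*+/+ livers and by 0.69 ± 0.10 in *Ppara*-/- livers. This within-array difference was larger by 0.25 in *Ppara*-/- livers (two-sided exact permutation test over 924 arrangements, p = 0.0022, the smallest it can give; n = 6 per genotype). A ratio within an array shows that the genes changed unequally and not that *Ppard* was constant.

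The estrogen-related receptors showed the same kind of contrast. *Esrra*, the relative with the strongest signal here, had means of 8.26 ± 0.07 and 8.21 ± 0.08 and a difference of -0.05 (95% interval -0.16 to 0.05). *Esrrb*, one of the dimmest members, had means of 5.70 ± 0.08 and 5.74 ± 0.12 and a difference of 0.04 (95% interval -0.08 to 0.16). Of the 3 genes only *Esrrg* passed. Within arrays, its signal relative to *Esrra* was lower by 0.49 in *Ppara*-/- livers and relative to *Esrrb* lower by 0.58 (exact permutation test, p = 0.0022 for each, n = 6 per genotype).

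The 3 within-array comparisons were chosen after the values were seen, and their p-values were the same after adjustment over the 3. *Pparg* and *Esrrg* entered with genotypes that did not overlap, and their relatives differed little. Exact p-values at or near the smallest possible were thus largely set in advance and add no support to the limma calls. Leaving out each array in turn kept the differences between 0.21 and 0.27 for *Pparg* against *Ppard*, between -0.54 and -0.46 for *Esrrg* against *Esrra* and between -0.62 and -0.55 for *Esrrg* against *Esrrb*. The largest exact p among them was 0.0043.

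The remaining 37 receptors did not pass. Their differences ran from -0.20 for *Rxrg* to 0.34 for *Esr1*, with a median size of 0.07 and 20 above and 17 below 0. For 33 of them the 95% interval lay within a 1.3-fold difference (0.38 on the log2 scale) on either side. For the other 4, *Esr1*, *Nr1d1*, *Rxrg* and *Hnf4g*, the interval reached past 1.3-fold. In both genotypes, 9 of the 40 receptors had means below the array medians. For such dim signals a narrow interval bounds the signal and need not bound the transcript. Counting the called ones, 11 of 40 receptors (27.5%) had an unadjusted p under 0.05, against 17.2% of all genes. Without *Ppara* it was 10 of 39. Dim signals were more common among all genes, of which 8454 of 19938 had means below the array medians in both genotypes. The bearing of this on the 2 shares was not tested.

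**Figure D4:**
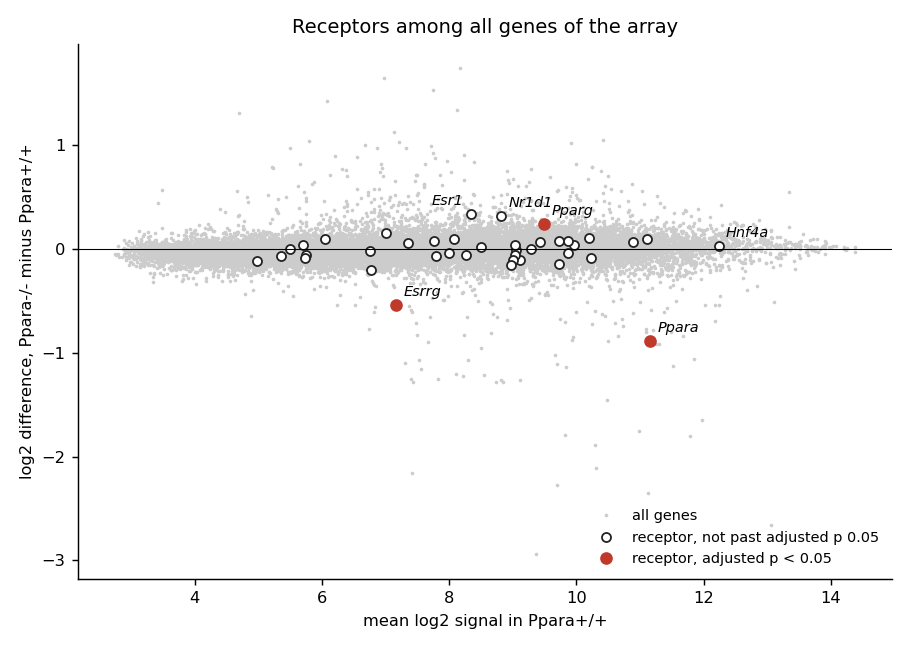
Log2 difference, *Ppara*-/- minus *Ppara*+/+ (vertical axis), against mean log2 signal in *Ppara*+/+ livers (horizontal axis) for 19938 genes in grey. Open circles are the 37 receptors that did not pass and red circles the 3 that passed; apart from *Ppara* and *Esrrg* the receptors lie between -0.20 and 0.34.

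*Esr1*, the gene of estrogen receptor α, came nearest to the threshold. The *Ppara*+/+ males gave 8.56, 8.46 and 8.22 and the females 8.59, 8.06 and 8.15. The *Ppara*-/- males gave 8.69, 8.68 and 8.87 and the females 8.59, 8.51 and 8.75. The groups overlapped because 2 *Ppara*+/+ livers, replicates 1 and 7, reached the range of the *Ppara*-/- livers. The difference of 0.34 (SE 0.0929, 95% interval 0.14 to 0.55) had an adjusted p of 0.093 in limma, and without *Ppara*+/+ replicate 7 it was 0.41 with an adjusted p of 0.015.

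*Nr2c1*, encoding the testicular orphan receptor TR2, was next in the other direction. Its *Ppara*+/+ values ran from 8.85 to 9.05 (median 8.99) and its *Ppara*-/- values from 8.61 to 8.95 (median 8.84), a difference of -0.15 (SE 0.0555, adjusted p = 0.21). *Rxrb* ran from 8.97 to 9.05 and from 8.82 to 8.98, a difference of -0.11 (SE 0.0390, adjusted p = 0.22). The groups overlapped for both genes, and both 95% intervals lay within 1.3-fold.

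The partner receptors are of interest because most of the metabolic receptors need them. *Rxra*, the RXR with the strongest signal, had means of 10.89 ± 0.11 and 10.96 ± 0.07 and a difference of 0.07 (95% interval -0.04 to 0.18). *Rxrg*, a dim signal, had 6.77 ± 0.17 and 6.56 ± 0.18, a difference of -0.20 (SE 0.0932, adjusted p = 0.33). None of the 3 RXR genes passed.

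The receptors of bile acids, sterols and drugs, which with PPARα govern hepatic metabolism, did not pass either. *Hnf4a* differed by 0.03 (95% interval -0.06 to 0.12) and took a value of -0.0084 after quantile normalization of the arrays, so its sign is not resolved. *Nr1i3* differed by 0.10 (SE 0.0411, adjusted p = 0.27) and *Nr1i2* by -0.08 (SE 0.0410, adjusted p = 0.38). *Nr1h4* differed by -0.14 (SE 0.0638, adjusted p = 0.32) and *Nr1h3* by 0.11 (SE 0.0690, adjusted p = 0.49). *Nr5a2* and *Nr0b2* differed by 0.04 and 0.00, with intervals of -0.06 to 0.15 and -0.16 to 0.17. In *Nr1h3*, *Ppara*+/+ replicate 7 was the highest array of either genotype, at 10.46, while the other 5 *Ppara*+/+ livers did not exceed 10.26.

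For the thyroid hormone and retinoic acid receptors the differences were small. *Thra* and *Thrb* differed by 0.08 (95% interval -0.01 to 0.17) and 0.02 (-0.08 to 0.12). *Rara*, *Rarb* and *Rarg* differed by 0.10, -0.10 and -0.04. The 6 *Ppara*-/- values of *Thrb* ran only from 8.50 to 8.53, against 8.35 to 8.63 in *Ppara*+/+.

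The clock receptors were uneven in their spread between pups. *Rora*, encoding the clock activator RORα, kept to 9.62 to 9.80 in *Ppara*+/+ and 9.74 to 9.88 in *Ppara*-/- livers, a difference of 0.08 (adjusted p = 0.38). *Nr1d1*, encoding the clock repressor REV-ERBα, ran from 8.55 to 9.13 in *Ppara*+/+ and from 8.69 to 9.45 in *Ppara*-/- livers. Its difference of 0.32 (SE 0.133, adjusted p = 0.29) was thus smaller than the range within either genotype. *Nr1d2*, encoding its relative REV-ERBβ, spanned only 8.98 to 9.09 in *Ppara*+/+ but 8.67 to 9.24 in *Ppara*-/- livers. Replicate 10 was the lowest of the *Ppara*-/- arrays in both genes.

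Among the other members, *Nr4a1*, an immediate-early gene, differed by 0.16 (SE 0.0710, adjusted p = 0.32) and *Nr4a3* by -0.12 (adjusted p = 0.33). The COUP-TF genes *Nr2f1*, *Nr2f2* and *Nr2f6* differed by 0.09, 0.07 and 0.04. *Nr3c2*, the mineralocorticoid receptor gene, differed by 0.06 and *Vdr* by 0.00. Over the family the SD between *Ppara*+/+ livers ran from 0.02 for *Nr2c2* to 0.23 for *Esr1*, and between *Ppara*-/- livers it reached 0.33 for *Hnf4g*.

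The sex of the pups was tested in the same way. None of the 40 receptors passed for sex in limma, where 0.0401% of all genes did, and 2 had an unadjusted p under 0.05 against 2.78% of genes. These were *Nr1i2*, higher in males by 0.11 (unadjusted p = 0.022), and *Nr1h5*, higher in males by 0.17 (unadjusted p = 0.042). For the interaction of genotype and sex 0 receptors and 0% of genes passed, and 0 receptors and 1.79% of genes had an unadjusted p under 0.05. The smallest interaction p of a receptor was 0.097, for *Rxrg*.

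A receptor's RNA need not follow its activity, so textbook target genes of the receptors were read beside them. The lists do not separate genes that a receptor raises from genes that it lowers. A list's count or median therefore does not give the direction of a receptor's activity. Of 73 listed targets 65 were measured; 7 were lower and 7 higher in *Ppara*-/- livers, with a median difference of 0.03 against -0.01 over all genes. These are 10.8% of the measured targets in each direction, beside the 1.12% lower and 1.99% higher of all genes. The 2 sets differ in brightness: 10 of the 65 targets had means below the array medians in both genotypes, against 8454 of the 19938 genes. How far this bears on the shares was not tested. Among the 65 are 12 clock genes, which are grouped as such and not by a receptor, and of which *Dbp* was called higher. The lists are not specific to 1 receptor. Some of their genes, *Pdk4*, *Scd1*, *Me1* and *Cyp8b1* among them, are known to respond to PPARα as well. How far these counts reflect the loss of PPARα itself was not tested.

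The 9 targets of the liver X receptors, which respond to oxysterols, held 3 that fell and none that rose (median -0.15). *Abcg8*, part of a sterol exporter into bile, went from 9.95 ± 0.32 to 9.11 ± 0.06, a difference of -0.84 (SE 0.125, adjusted p = 0.0037). *Scd1*, which desaturates fatty acids, went from 8.66 ± 0.22 to 7.86 ± 0.19, a difference of -0.80 (SE 0.0945, adjusted p = 7.4e-04). *Abcg5*, the neighboring gene and the other part of the exporter, differed by -0.62 (adjusted p = 0.016), while *Abca1* and *Abcg1*, cellular cholesterol exporters, differed by -0.06 and 0.01 and did not pass. *Srebf1* (-0.34, adjusted p = 0.079) and *Mylip* (-0.15, adjusted p = 0.12) also fell short in limma. Of the 9 targets, 5 had an unadjusted p under 0.05 in limma, beside 17.2% of all genes, and 2 had differences above 0. *Nr1h3* itself differed by 0.11, as given above.

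Of 6 thyroid hormone targets 3 fell and none rose (median -0.23). *Dio1*, the deiodinase that activates thyroid hormone in liver, went from 7.41 ± 0.29 to 6.80 ± 0.16, a difference of -0.61 (adjusted p = 0.032), and its groups overlapped. *Gpd2*, the mitochondrial glycerol phosphate dehydrogenase, differed by -0.35 (adjusted p = 0.046) and *Me1*, malic enzyme, by -0.32 (adjusted p = 0.036). *Thrsp*, a lipogenic target, had a dim signal and differed by 0.25 (adjusted p = 0.25).

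Of 9 bile acid receptor targets 2 rose and none fell (median 0.12), irrespective of the direction in which the receptor acts on each. *Cyp8b1*, which sets the share of cholic acid, went from 10.55 ± 0.24 to 11.12 ± 0.07, a difference of 0.58 (SE 0.0879, adjusted p = 0.0043). *Slc51b*, part of a bile acid exporter, went from 8.37 ± 0.11 to 8.90 ± 0.13, a difference of 0.53 (SE 0.0674, adjusted p = 0.0013). *Cyp7a1*, the rate-limiting enzyme of bile acid synthesis, differed by 0.19 (adjusted p = 0.35), and *Abcb11*, the bile salt export pump, by -0.02. *Slc10a1* differed by 0.12 and fell short of the threshold (adjusted p = 0.084 in limma). Of the 9 differences, 6 lay above 0.

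Of 7 HNF4A targets 2 rose, both apolipoprotein genes: *Apoc3* by 0.82 (SE 0.0955, adjusted p = 6.9e-04) and *Apoa4* by 0.55 (SE 0.0935, adjusted p = 0.0085). The other 5 lay between 0.02 and 0.22, and the list median was 0.04. Of 10 xenobiotic targets 1 rose, *Slco1a4*, an organic anion transporter, from 6.07 ± 0.48 to 7.51 ± 0.18, a difference of 1.43 (SE 0.192, adjusted p = 0.0019). The cytochrome genes *Cyp3a11* and *Cyp2b10* differed by 0.15 (adjusted p = 0.18) and -0.06, the latter with dim means of 5.58 in *Ppara*+/+ and 5.52 in *Ppara*-/- livers.

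Of 6 targets of the estrogen-related receptors *Pdk4*, which restrains glucose oxidation, fell from 9.69 ± 0.08 to 8.58 ± 0.10, a difference of -1.11 (SE 0.0533, adjusted p = 3.3e-07). *Sdhb*, a subunit of respiratory complex II, rose by 0.18 (adjusted p = 0.033), and the list median was 0.04. Of 12 clock genes only *Dbp*, an output gene of the clock, passed, with a rise of 0.33 (adjusted p = 0.043), although 11 of the 12 differences lay above 0. None of 6 retinoic acid targets passed (median -0.00), with 0 at an unadjusted p under 0.05. Of these 6, 3 had means below the array medians in both genotypes.

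**Figure D5:**
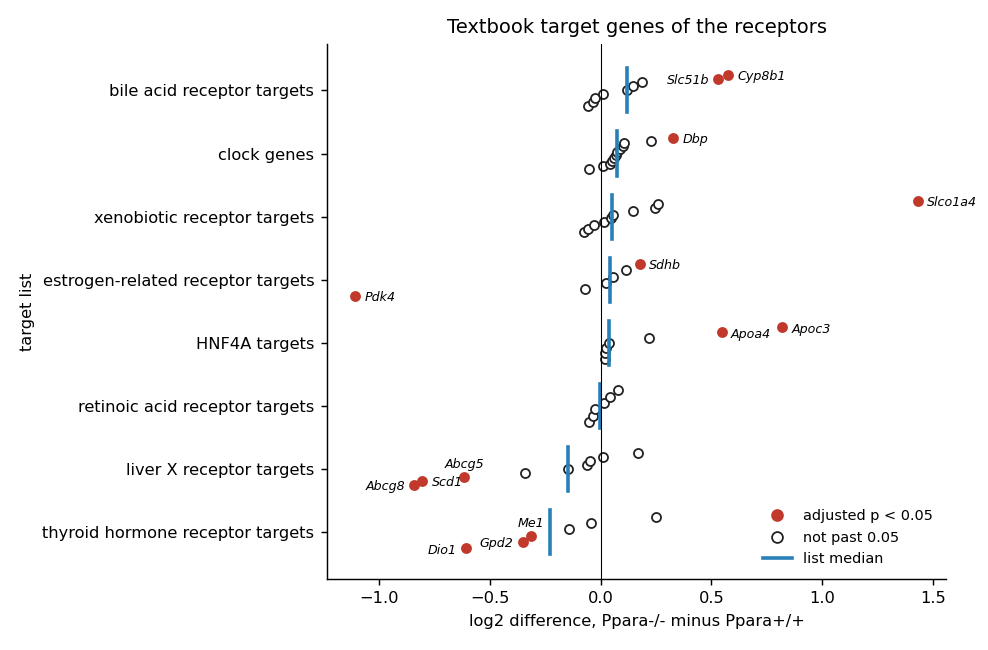
Log2 difference, *Ppara*-/- minus *Ppara*+/+ (horizontal axis), of each measured target gene. Genes are grouped by the receptor they are known to respond to, in either direction, or as clock genes. Filled red points passed an adjusted p of 0.05, open points did not, and blue bars mark list medians; the median is lowest for thyroid hormone targets (-0.23) and highest for bile acid targets (0.12), and small vertical offsets only separate the points.

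The calls of *Dbp*, *Dio1*, *Gpd2*, *Me1* and *Sdhb* were close to the threshold and were lost when single arrays were left out. The other 9 target calls held in every limma fit that left out 1 array, but without *Ppara*-/- replicates 6 and 10 together *Abcg5* (-0.59, adjusted p = 0.084) and *Apoa4* (0.56, adjusted p = 0.056) no longer passed. The Kupffer cell, endothelial and erythroid shifts accompany all these lists, and their part was not tested.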

How the data were processed

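Whole livers of 12 P2 pups were measured on Affymetrix mouse gene arrays, 1 array per pup. The authors extracted RNA, kept samples of high integrity and summarised the arrays with RMA; the sources used here give no version. The values deposited by the authors are normalized log2 signals, 1 per probe set and array, and no further scaling was applied. Of 35556 probe sets, 21789 name 1 gene in GEO's platform annotation, 1621 several and 12146 none. For each gene the probe set of highest mean among those naming it alone was taken.

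Genotype and sex were fitted to every probe set with lmFit and eBayes of limma 3.58.1 (R 4.3.3; 9 residual and 2.49 prior degrees of freedom), and p-values were adjusted by Benjamini-Hochberg across all of them. The calculation was tested on simulated data. Members, gene lists, markers and alternatives were chosen with earlier results of these data known, and the lists come from textbook knowledge. Receptors were named if they passed, if their genotypes did not overlap, if they came nearest to the threshold, or if they had the 10 strongest signals, and otherwise by role; of each target list up to 2 genes per direction were named. *Abcg5*, *Me1* and the targets named that did not pass were chosen after their values were seen. Alternatives left sex out, fitted genotype and sex as 4 groups, rescaled the arrays (quantiles or medians), dropped probe sets under the 40th percentile, kept to those of 1 gene, used a robust trend or array weights, averaged a gene's probe sets, required 1.3-fold, used exact Mann-Whitney tests or left out arrays. The within-array comparisons of relatives were added after the values were seen. Arrays of fetal liver are not analysed here. No pair of arrays was identical.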

Additional observations from a re-analysis of the deposited data

Results flagged for a closer look

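In 5 of 80 sets of 6 arrays (40 receptors in each genotype, 6.25%), 1 array lay far from the rest by Dixon's criterion, which chance alone meets in about 1 in 20 sets. *Ppard* was low in *Ppara*-/- replicate 5, a male, at 8.88, where the next array gave 9.04. *Thra* was low in *Ppara*-/- replicate 10, a female, at 9.82, where the next gave 9.96. *Nr5a2* was high in *Ppara*-/- replicate 6, a male, at 10.12, where the next gave 10.01. *Hnf4g*, a dim signal, was high in *Ppara*-/- replicate 11, a female, at 6.30, where the next gave 5.62. *Nr3c2* was low in *Ppara*+/+ replicate 8, a female, at 7.08, where the next gave 7.34. None of these receptors passed the test between genotypes. Of the arrays named here, *Ppara*-/- replicates 6 and 10 had the highest pancreatic marker means, 9.11 and 8.73. Replicate 11 had the highest cholangiocyte marker mean, 7.33. Whether other cells in these samples account for the receptor values was not tested.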

How the results depend on the processing

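The 2 receptors called lower, *Ppara* and *Esrrg*, were called in every limma fit, with adjusted p-values of 8.7e-08 to 6.9e-05 and 2.0e-04 to 0.0041, and when each array was left out in turn the count was always 2. With adjustment across all probe sets, an exact Mann-Whitney test called 0 receptors and 0 target genes in either direction; its smallest possible p of 0.0022 became 0.069 after adjustment, and 10 receptors had an unadjusted p under 0.05. The 1 receptor called higher, *Pparg*, had adjusted p-values of 0.0071 to 0.0899. The count was 0 with a minimum change of 1.3-fold and without *Ppara*-/- replicates 6 and 10. It was 2, with *Esr1* added, when dim probe sets were left out, when only probe sets of 1 gene were tested, with array weights and with a gene's probe sets averaged. Leaving out 1 array gave 1 to 2, with 2 only without *Ppara*+/+ replicate 7; the adjusted p of *Esr1* ran from 0.015 to 0.23 over the limma fits. The 7 target genes called lower became 4 in a fit of 4 groups of genotype and sex, 3 without *Ppara*-/- replicates 6 and 10, and 4 to 6 when 1 array was left out, with 4 without *Ppara*+/+ replicates 1 or 3 or *Ppara*-/- replicates 4, 6 or 10. The 7 called higher became 11 with array weights and 5 to 11 when 1 array was left out, with 11 without *Ppara*+/+ replicate 7. The cause of these shifts was not tested. *Hnf4a* changed sign after quantile normalization (-0.0084). No receptor passed for sex or for the interaction of genotype and sex in any of the fits run. No paired analysis was possible because the replicate numbers are not shared between genotypes.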
